A study of Mus musculus with 24 samples.

Results

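The variable (V) genes of the T cell receptor alpha and beta chains were followed in splenic regulatory T (Treg) cells of young and old mice. The members were all rows whose symbol starts with Trav or Trbv followed by a digit, which gave 124 of the 17464 genes in the table: 101 Trav genes on chromosome 14 and 23 Trbv genes on chromosome 6. The GENCODE annotation of the same genome build, GRCm39, holds 165 such genes (130 Trav and 35 Trbv), and the genes that are not among the rows were not analysed here. By that annotation 118 members were V genes and 6 were pseudogenes (5 Trav and 1 Trbv). All mice were WT C57BL/6JRccHsd, young at 2 months and old at 26 months, and no agent was given. From each of the 8 mice 3 splenic subsets were sorted: resting Treg cells (rTreg, from the CD44- gate), activated Treg cells (aTreg, from the CD44+ gate) and KLRG1+ Treg cells (kTreg). This gave 24 libraries in 6 groups of 4, and the 3 libraries of a mouse share its replicate number. Each group is defined by surface markers alone, so it can hold cells of other kinds that pass the same gate, and the number of cells behind a library is not given in the sources used here.

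A T cell makes its receptor by joining a V gene to a joining (J) gene, with a diversity gene between them in the beta chain, and then splices that exon to a constant gene (Trac, Trbc1 or Trbc2). The V gene supplies most of the variable domain, including the loops that contact the MHC molecule. A cell and its descendants carry the same rearranged chains, so a large clone raises its own Trav and Trbv gene together. In bulk RNA the share of a V gene therefore mixes the number of cells that use it with the receptor RNA per cell, and these cannot be told apart. Here each gene's value was expressed as its share of the Trav or Trbv sum of the library. The shares of a library add up to 100%, so a rise of one gene lowers the others.

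Libraries held 15045747 to 29521942 reads on the listed genes. Of these, 3823 to 8138 lay on Trav genes and 5735 to 16484 on Trbv genes, which sets the precision of a share. Intervals given below are exact 95% binomial intervals and cover counting error only, since reads without molecular identifiers are not independent molecules. The labels were checked against marker genes. Foxp3, the defining transcription factor of Treg cells, was present in every library, between 5079.5 and 37793.3 normalized units (reads divided by the size factor of the library). Klrg1 lay between 16559.3 and 41560.6 units in kTreg and between 0.7 and 357.5 in the other subsets.

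Some libraries stood apart on markers of other cells. The library of old aTreg replicate 2 had the lowest Foxp3 value, 5079.5 units against 16924.6 to 19813.2 in the other old aTreg libraries. The 4 listed Treg markers (Foxp3, Il2ra, Ctla4 and Ikzf2) summed to 13335.5 to 38404.4 units in old aTreg and 46711.3 to 51601.7 in young aTreg. By the limma test described below 2 of them, Ctla4 and Il2ra, were called lower in old than in young aTreg, against 0.86% of all genes. Il2ra was also called lower in old than in young rTreg. The B cell markers (4 of 4 listed) summed to between 6650.6 and 15061.1 units in the 3 libraries of young mouse 2 and to at most 2063.6 in the others. The myeloid markers (4 of 4 listed) summed to between 9993.1 and 26168.4 units in old rTreg and to 14649.5 in young kTreg replicate 2. The gamma-delta T cell markers (5 of 5 listed) summed to between 3711.7 and 11953.9 units in old aTreg, against at most 1605.2 in the young groups, 1387.6 in old rTreg and 3427.5 in old kTreg. Within that list Trdc, the constant gene of the delta chain, lay between 33.3 and 367.8 units in all libraries. Young kTreg replicate 4 had 4913 genes at 0, against 419 to 2756 in the other libraries. The part of other cells and of such libraries in the shares below was not tested.

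The genes around which the results turn are shown by the end of their V exon, because that is where they are joined. Each line gives the last 60 bases of the exon and then the recombination signal, a heptamer (in capitals), a spacer and a nonamer that the RAG recombinase recognises. Sequences were read from the GRCm39 genome, 5′ to 3′ on the strand of the gene. Trbv4 (V exon chr6:41036526-41036820), Trbv1 (chr6:40868525-40868819), Trbv15 (chr6:41118295-41118592) and Trbv12-1 (chr6:41090709-41091001) are beta genes on the plus strand. Trav10 (V exon chr14:53743453-53743743), Trav7-4 (chr14:53698904-53699195), Trav14-1 (chr14:53791704-53792015), Trav6-3 (chr14:53667543-53667834) and Trav11 (chr14:53757026-53757316) are alpha genes, also on the plus strand.
Trbv4: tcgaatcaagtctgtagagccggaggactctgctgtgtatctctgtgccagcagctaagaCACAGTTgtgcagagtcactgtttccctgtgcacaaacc
Trbv1: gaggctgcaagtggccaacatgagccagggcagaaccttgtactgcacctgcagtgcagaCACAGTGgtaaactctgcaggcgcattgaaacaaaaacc
Trbv15: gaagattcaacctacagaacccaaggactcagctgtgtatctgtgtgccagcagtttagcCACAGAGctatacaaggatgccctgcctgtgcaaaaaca
Trbv12-1: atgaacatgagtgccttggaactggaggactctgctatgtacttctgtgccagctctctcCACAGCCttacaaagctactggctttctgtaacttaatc
Trav10: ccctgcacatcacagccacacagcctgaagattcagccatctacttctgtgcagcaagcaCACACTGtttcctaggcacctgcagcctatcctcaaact
Trav7-4: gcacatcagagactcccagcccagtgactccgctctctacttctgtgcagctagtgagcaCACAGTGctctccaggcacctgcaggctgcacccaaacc
Trav14-1: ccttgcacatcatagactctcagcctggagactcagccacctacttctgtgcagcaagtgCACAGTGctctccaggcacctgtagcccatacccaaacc
Trav6-3: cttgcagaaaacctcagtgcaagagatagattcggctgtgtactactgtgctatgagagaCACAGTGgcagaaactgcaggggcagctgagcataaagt
Trav11: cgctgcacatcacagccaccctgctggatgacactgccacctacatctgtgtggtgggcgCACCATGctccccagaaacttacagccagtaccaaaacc

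The mouse alpha locus carries repeated blocks of V genes, whose copies are marked d and n in the symbols, and this limits what a count can say. Among the members 27 Trav genes were d copies, 26 were n copies and 48 were neither. A run of 150 bases, the read length, was shared with another V gene of the annotation by 61 of the 101 Trav genes and by 0 of the 23 Trbv genes, and 27 Trav genes shared all their runs. The leading alpha gene shows the scale of the problem. The V exons of Trav7-4 and Trav7d-4 differ at 1 of 292 bases, in capitals in these lines.
Trav7-4: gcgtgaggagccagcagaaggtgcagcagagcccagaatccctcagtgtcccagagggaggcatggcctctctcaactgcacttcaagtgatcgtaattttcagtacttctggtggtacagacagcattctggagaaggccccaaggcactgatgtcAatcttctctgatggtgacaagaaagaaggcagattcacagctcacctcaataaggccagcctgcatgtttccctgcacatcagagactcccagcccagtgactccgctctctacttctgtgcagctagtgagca
Trav7d-4: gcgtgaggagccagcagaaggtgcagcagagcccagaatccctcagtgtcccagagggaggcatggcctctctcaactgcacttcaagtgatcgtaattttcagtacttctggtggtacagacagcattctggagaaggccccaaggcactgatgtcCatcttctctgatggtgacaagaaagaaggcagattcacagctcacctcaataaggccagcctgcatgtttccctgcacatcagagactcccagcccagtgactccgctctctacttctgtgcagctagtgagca
The exons of Trav12n-3 and Trav12d-3 were identical over 301 bases and those of Trav9n-3 and Trav9d-3 over 294, so the values of these genes are uncertain beyond their sum.

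Trav usage was spread over more genes than Trbv usage, with 101 Trav and 23 Trbv genes listed. The 10 Trbv genes with the highest mean share over 24 libraries were, in order, Trbv1 (11.1%), Trbv3 (10.2%), Trbv16 (9.43%), Trbv2 (8.48%), Trbv19 (7.74%), Trbv13-2 (6.03%), Trbv12-2 (5.87%), Trbv4 (5.82%), Trbv31 (5.23%) and Trbv20 (4.18%). Among the alpha genes Trav7-4 led with a mean of 6.57%. It was followed by Trav10 (3.96%), Trav9-1 (3.73%), Trav14n-3 (2.90%), Trav3-3 (2.81%), Trav7d-4 (2.58%), Trav5-4 (2.52%), Trav4-4-dv10 (2.498%), Trav14-2 (2.45%) and Trav16n (2.44%). Several of these means rest on single libraries, since Trav10 ranged from 1.42% to 36.8% and Trbv4 from 1.74% to 48.2%. The d copies together held 13.4% ± 3.05 (SD, n = 24) of the Trav sum and the n copies 16.2% ± 3.19. When the Trav genes were ordered along the chromosome, the 33 genes nearest the J genes held 48.9% ± 5.10 of the sum and the 34 farthest from them held 17.8% ± 3.41. Pseudogenes held 1.34% ± 0.487 of the Trav sum and 0.338% ± 0.117 of the Trbv sum.

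**Figure D1:**
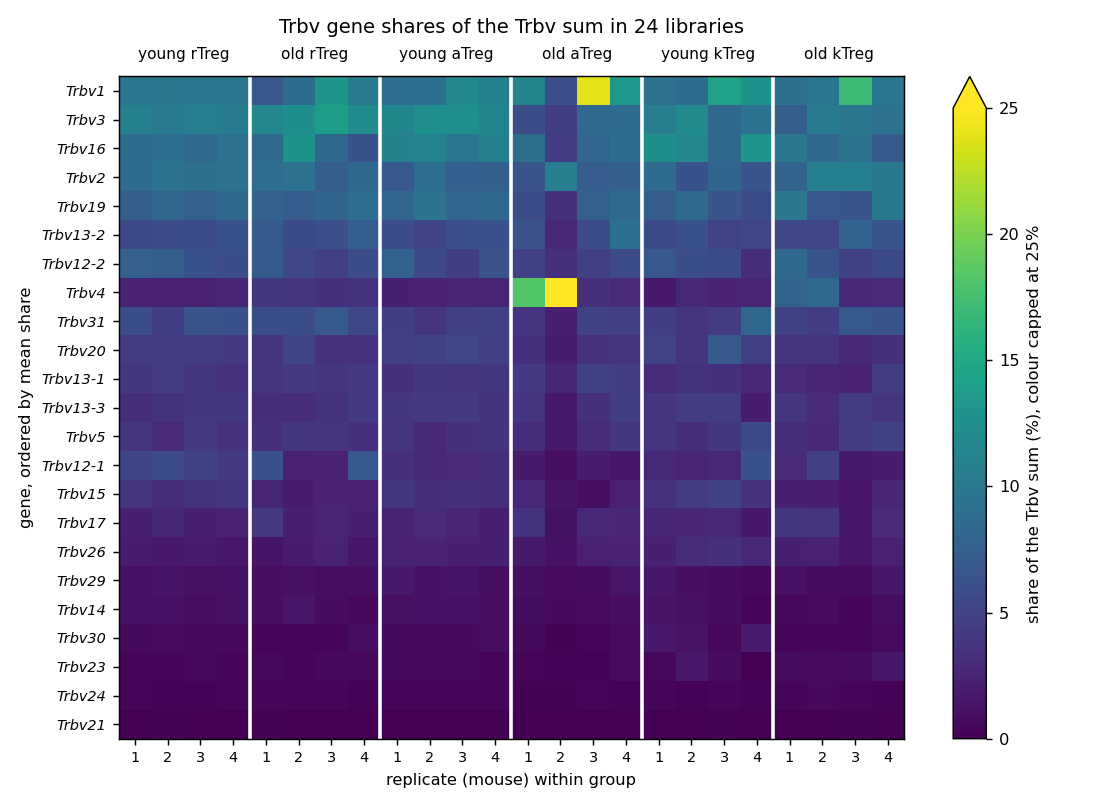
Share of the Trbv sum (colour, %, capped at 25%) for the 23 Trbv genes (rows, by mean share) in the 24 libraries (columns, 4 mice per group in replicate order). Trbv1 and Trbv3 are high in most libraries, whereas Trbv4 stands out in old aTreg replicates 1 and 2 at 18.2% and 48.2%.

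The leading Trbv gene was the same in all young rTreg and aTreg libraries and varied in old aTreg and in kTreg of both ages. Trav7-4 was the largest Trav gene in 21 of 24 libraries. The exceptions were Trav14n-1 in young rTreg replicate 1, Trav7d-4 in young kTreg replicate 4 and Trav10 in old aTreg replicate 2. Trav14n-1 cannot be counted apart from its copy Trav14d-1, and the pair held 5.46% in young rTreg replicate 1. Trbv3 led all 8 young rTreg and aTreg libraries and 3 of the 4 old rTreg libraries, with Trbv16 in the remaining old rTreg library. In old aTreg the leaders were Trbv4 in replicates 1 and 2 and Trbv1 in replicates 3 and 4. In old kTreg they were Trbv19, Trbv2, Trbv1 and Trbv2 for replicates 1 to 4, and in young kTreg Trbv16, Trbv3, Trbv1 and Trbv16.

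In old aTreg replicate 2 a single Trbv gene and a single Trav gene took up much of the receptor RNA. Trbv4 held 48.2% of its Trbv sum (5567 of 11543 reads, interval 47.3% to 49.1%). Trav10 held 36.8% of its Trav sum (2096 of 5701 reads, interval 35.5% to 38.0%). Outside this library Trav10 did not exceed 5.09%. That next value was in the kTreg library of the same mouse (interval 4.54% to 5.69%), and its rTreg library had 3.14% (interval 2.61% to 3.74%). Trbv4 was also higher in the kTreg library of this mouse, at 8.53% (interval 7.91% to 9.19%), against 3.78% in its rTreg library.

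In old mouse 1 both chains had a high share in aTreg, in old mouse 3 the beta chain had one, and in old mouse 4 neither did. In old mouse 1 Trbv4 held 4.10% of the Trbv sum in rTreg, 18.2% in aTreg and 7.97% in kTreg. Its aTreg library also had the highest Trav7-4 share of all libraries, 14.3% (interval 13.5% to 15.2%). In old mouse 3 Trbv1 held 13.1% in rTreg, 24.01% in aTreg and 17.2% in kTreg, against 6.77% to 10.4%, 6.08% to 13.4% and 9.27% to 9.85% in the corresponding libraries of the other old mice. The kTreg library of old mouse 3 also had a Trav7-4 share of 10.1% (interval 9.35% to 10.8%), against 7.18% in its rTreg and 5.59% in its aTreg library. Among young mice the highest share of any Trbv gene was 14.4%, for Trbv1 in kTreg replicate 3. The leading share of old mouse 4, 13.4% for Trbv1 in aTreg, lay below this value. In old mice 1, 2 and 3 the gene that led in aTreg was also higher in kTreg than in rTreg, while in old mouse 4 Trbv1 held 10.4% in rTreg and 9.85% in kTreg.

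**Figure D2:**
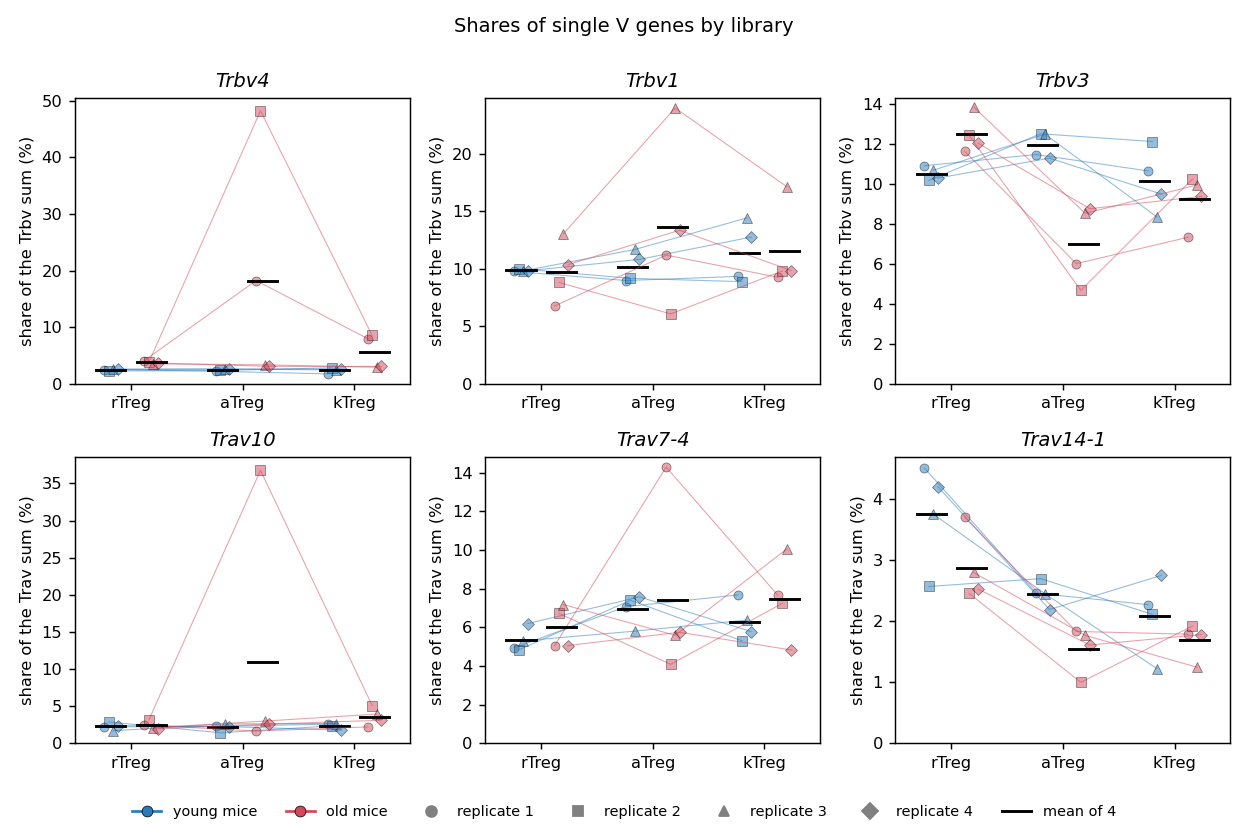
Shares (%) of 6 V genes of their own locus sum by subset, with young mice in blue, old mice in red, symbols for the 4 replicates, thin lines joining the libraries of a mouse and bars for the mean of 4. Trbv4 reached 18.2% and 48.2% and Trav10 36.8% in old aTreg, Trbv3 was lower in old aTreg than in young aTreg without overlap, and Trav14-1 was highest in rTreg.

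Trbv4 and Trbv15 separated the ages in all 3 subsets. Trbv4 lay between 1.74% and 2.82% in the 12 young libraries. In old mice it lay between 3.51% and 4.10% in rTreg, between 3.07% and 48.2% in aTreg and between 2.91% and 8.53% in kTreg, so every old library was above every young one. On the log2 scale of the fitted values the difference was 0.61 ± 0.58 (SE) in rTreg, 2.00 ± 0.58 in aTreg and 1.07 ± 0.58 in kTreg, and it passed the test in none of them (limma, adjusted p = 0.587, 0.0617 and 0.369). Trbv15 went the other way. Its young libraries lay between 3.15% and 3.92% in rTreg, 3.30% and 4.08% in aTreg and 3.54% and 4.93% in kTreg, and the old ones between 1.96% and 2.59%, 1.03% and 2.80%, and 1.51% and 2.70%. Trbv15 fell by 1.03 ± 0.26 on the log2 scale in old aTreg (limma, adjusted p = 0.0251), and the differences in kTreg (-0.98, adjusted p = 0.0601) and rTreg (-0.64, adjusted p = 0.134) were not past the threshold. The call in aTreg was lost under 8 of 20 alternatives, and without old aTreg replicate 2 the difference was -0.91 (adjusted p = 0.114).

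Trbv3 was lower in old than in young aTreg. It held 11.5%, 12.5%, 12.5% and 11.3% of the Trbv sum in the 4 young aTreg libraries and 6.01%, 4.68%, 8.53% and 8.77% in the old ones, so the groups did not overlap. The fall was 0.82 ± 0.17 on the log2 scale (limma, adjusted p = 0.00615) and stayed past the threshold under all 20 alternatives. In rTreg the order was the opposite, with 10.2% to 10.9% in young and 11.6% to 13.9% in old libraries. That difference did not pass the test (0.25 ± 0.17, adjusted p = 0.422), nor did the one in kTreg (-0.14, adjusted p = 0.695). The median difference of the 22 Trbv genes tested was -0.42 in aTreg, against -0.05 in rTreg and 0.06 in kTreg, and 18 of the 22 were below 0 in aTreg.

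Few V genes passed the test for age. A gene was called at an adjusted p under 0.05 and a fold over 1.5, over all 16630 genes tested, of which 121 were members (99 Trav and 22 Trbv). Between old and young aTreg 0 members were called higher, against 1.85% of all genes, and 2 lower, Trbv3 and Trbv15, against 0.86%. Together this is 1.65% of the members tested against 2.71% of all genes. In rTreg 0 members were called, against 5.81% of all genes (4.11% higher and 1.7% lower), and in kTreg 0 members, against 1.25% (1.02% higher and 0.235% lower). At an unadjusted p under 0.05 there were 6 members in rTreg, 13 in aTreg and 9 in kTreg. The edgeR quasi-likelihood test on the whole reads called 1, 3 and 0 members, and DESeq2 called 1, 4 and 3.

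Members whose ages did not overlap were counted as well, beside the same count over all genes. In rTreg 6 of the 124 members were higher in all old than in all young libraries, or 4.84%, against 6.64% of all genes tested, and 6 were lower, against 5.02%. In aTreg 1 member was higher, against 7.63%, and 11 were lower, or 8.87%, against 5.84%. In kTreg 1 was higher, against 6.57%, and 2 were lower, against 3.88%. The member that was higher in both aTreg and kTreg was Trbv4, and the 2 lower in kTreg were Trbv15 and Trav9-1. Trav9-1 lay between 3.88% and 5.75% of the Trav sum in young kTreg and between 3.11% and 3.83% in old kTreg.

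Diversity was summarised by the effective number of genes, the exponential of the Shannon entropy, which equals the number of equally used genes that would give the same spread. For Trbv it was similar in the young groups: 17.1 ± 0.0776 in rTreg, 16.8 ± 0.251 in aTreg and 16.8 ± 0.676 in kTreg (SD, n = 4). In old mice it was 16.4 ± 0.464 in rTreg, 13.5 ± 3.896 in aTreg and 16.4 ± 1.15 in kTreg. The 4 old aTreg libraries had 15.4, 7.87, 14.1 and 16.6, lowest in replicates 2 and 3. For Trav the young means were 58.1 ± 1.54, 56.9 ± 2.86 and 53.8 ± 4.91 and the old means 56.1 ± 0.722, 45.9 ± 16.9 and 54.4 ± 4.04 in rTreg, aTreg and kTreg. Old aTreg held 46.9, 21.6, 57.9 and 57.1. Without old aTreg replicate 2 the other 23 libraries lay between 46.6 and 60.1 for Trav and between 14.1 and 17.3 for Trbv.

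**Figure D3:**
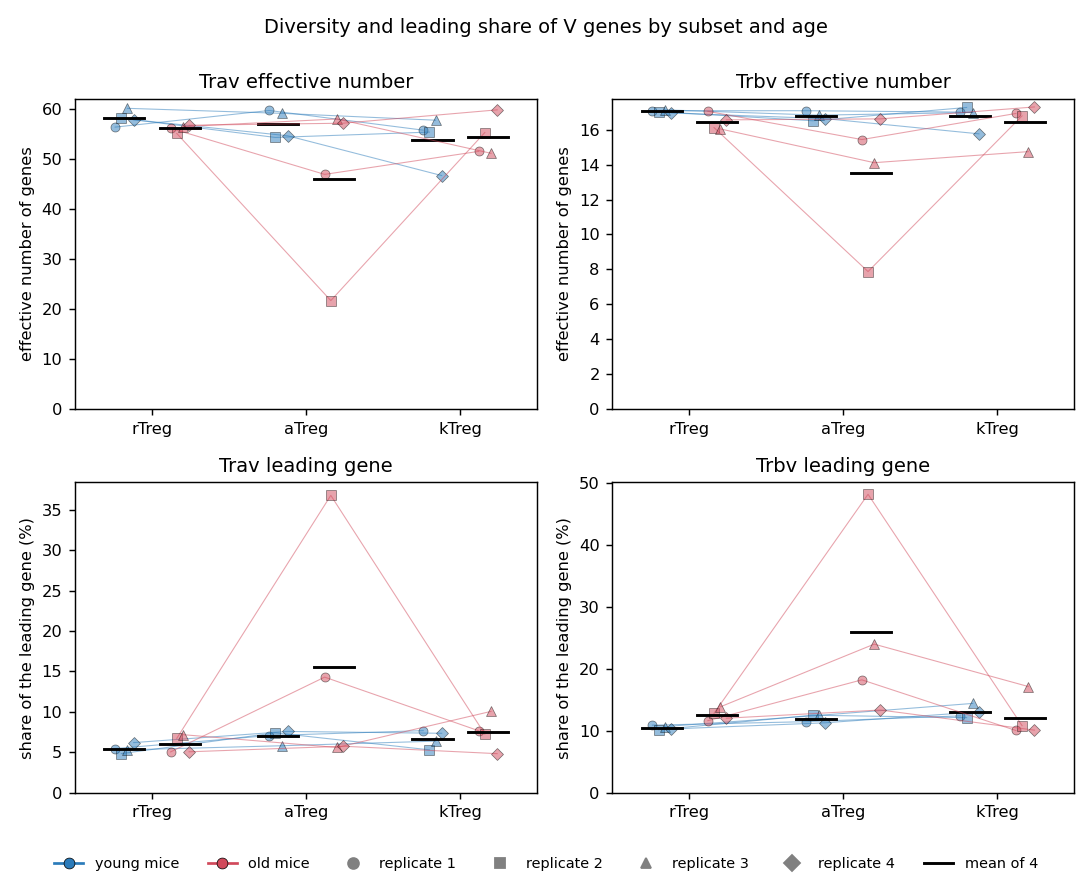
Effective number of genes (upper panels) and share of the leading gene in % (lower panels) for Trav and Trbv by subset, with young mice in blue, old mice in red, a symbol per replicate, lines joining the libraries of a mouse and bars for the mean of 4. Old aTreg replicate 2 has the lowest effective numbers, 21.6 for Trav and 7.87 for Trbv, and the highest leading shares.

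The share of the leading Trbv gene gave the smallest p-values of the diversity tests. It was 10.5% ± 0.342 in young and 12.6% ± 0.982 in old rTreg, and 11.95% ± 0.651 in young and 25.96% ± 15.5 in old aTreg, with no overlap between the ages in either subset. In both cases an exact two-sided permutation test gave p = 0.0286, the smallest that 4 mice against 4 can give. In kTreg it was 13.0% ± 1.02 in young and 12.04% ± 3.43 in old mice (exact permutation p = 0.657). Between subsets the leading Trbv share was 7.40 points higher in aTreg than in rTreg, and higher in 8 of 8 mice (exact sign-flip permutation p = 0.00781, the smallest that 8 mice can give). These tests belong to a family of 24, over which none passed: the adjusted p was 0.15 for each of the 3 differences. Over 24 tests a single comparison cannot pass on its own, even at the smallest p that its mice can give. Leaving out old mouse 2 lowered the difference between the ages in aTreg from 14.01 to 6.59 points, and that between aTreg and rTreg from 7.40 to 3.40.

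The remaining diversity measures gave no adjusted p under 0.05 either. For Trbv the effective number was 1.61 lower in aTreg than in rTreg, lower in 6 of 8 mice (exact permutation p = 0.0312, adjusted p = 0.15). For Trav the leading share was 1.34 points higher in kTreg than in rTreg, higher in 7 of 8 mice (exact permutation p = 0.0156, adjusted p = 0.15). The Trav effective number was 10.99 lower in old than in young aTreg (exact permutation p = 0.286) and 2.92 lower without old mouse 2. Between kTreg and rTreg the Trbv effective number differed by -0.15 (exact permutation p = 0.602).

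Whether a difference between subsets itself depended on age was tested on the 8 within-mouse differences. The leading Trbv share was 1.06 points higher in kTreg than in aTreg in young mice and 13.9 points lower in old mice. The age difference of -15.0 points had an exact permutation p of 0.0286 and an adjusted p of 0.343 over 12 such tests. It was -7.16 points without old mouse 2.

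Among the genes called between subsets, Trbv12-1, Trav14-1 and Trav6-3 are described first. Trbv12-1 was lower in aTreg than in rTreg in all 8 mice, by 0.520 to 5.32 points. Its values were 5.25%, 5.73%, 4.96% and 4.21% in young rTreg and 3.43%, 2.83%, 2.96% and 3.23% in young aTreg, and 6.33%, 2.25%, 2.45% and 6.89% in old rTreg and 1.76%, 1.07%, 1.93% and 1.56% in old aTreg. Trbv12-1 fell by 1.02 ± 0.26 on the log2 scale (limma, adjusted p = 0.0122), and the call was kept under 18 of 20 alternatives. Between kTreg and rTreg it differed by -0.57 (adjusted p = 0.124).

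Trav14-1 was highest in rTreg. It held 4.51%, 2.57%, 3.76% and 4.21% of the Trav sum in young rTreg, and 3.71%, 2.46%, 2.80% and 2.53% in old rTreg. The 8 aTreg libraries lay between 1.00% and 2.70% and the 8 kTreg libraries between 1.23% and 2.75%. The gene was lower than in rTreg by 0.74 ± 0.20 in aTreg (in 7 of 8 mice, adjusted p = 0.0182) and by 0.82 ± 0.20 in kTreg (in 8 of 8 mice, adjusted p = 0.00483) on the log2 scale in limma. With the deposited values in place of shares neither difference was called, with -0.51 (adjusted p = 0.163) and -0.53 (adjusted p = 0.0834). Trav6-3 was the opposite. It held 1.32%, 1.51%, 1.17% and 1.09% in young rTreg and 2.97%, 2.25%, 2.05% and 2.54% in young kTreg, and 2.24%, 2.41%, 1.14% and 1.80% in old rTreg and 3.12%, 4.53%, 3.49% and 2.46% in old kTreg. Trav6-3 was higher in kTreg by 0.90 ± 0.23 on the log2 scale (limma, adjusted p = 0.00709), in 8 of 8 mice and under all 20 alternatives. Its V exon differs from that of Trav6d-3 at 1 of 292 bases, and the sum of both genes gave 0.88 (adjusted p = 0.00714). Against aTreg the gene alone differed by 0.70 (adjusted p = 0.0531) and the sum by 0.71 (adjusted p = 0.0466).

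Few V genes were called between subsets on the rescaled values, and for kTreg against either other subset more were called on other scales. Between kTreg and aTreg 0 members were called higher, against 4.12% of all genes, and 1 lower, Trav12n-3, against 3.23%. This is 0.826% of the members tested against 7.35% of all genes. With the mouse as a block 1 was called higher and 1 lower, and without young kTreg replicate 4 it was 3 higher and 1 lower. On the deposited values without rescaling it was 1 higher and 6 lower, with edgeR on the recovered reads 2 and 7, and with DESeq2 3 and 11. Between kTreg and rTreg 2 were higher (Trav6-3 and Trav9n-3), against 9.36% of all genes, and 3 lower (Trav14-1, Trav14d-3-dv8 and Trav12n-3), against 6.01%, or 4.13% against 15.4% in all. Here the deposited values gave 4 higher and 14 lower, edgeR 4 and 15, and DESeq2 5 and 16. Between aTreg and rTreg 1 was higher (Trav11d), against 5.23%, and 2 lower (Trav14-1 and Trbv12-1), against 2.79%, or 2.48% against 8.02% in all. For this pair the deposited values gave 1 higher and 1 lower, edgeR 1 and 1, and DESeq2 3 and 1. Trav14d-3-dv8, which like other genes with dv in the symbol can join either an alpha or a delta chain, was lower in kTreg than in rTreg by 0.69 ± 0.25 on the log2 scale (limma, adjusted p = 0.0455), and in 8 of 8 mice. It lost its call under 10 of 20 alternatives.

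The direction within each mouse was counted over the 124 members. Between kTreg and aTreg 2 members were higher in 8 of 8 mice (1.61% against 5.58% of all genes tested) and 0 were lower (against 6.05%). The 2 were Trbv5 and Trav9n-3, and Trav9n-3 cannot be counted apart from its identical copy Trav9d-3. The summed share of that pair was lower in kTreg than in aTreg in young mouse 4 (0.321% and 0.472%) and old mouse 1 (0.121% and 0.290%). In the other mice it was higher. The pair differed by 0.56 on the log2 scale between kTreg and aTreg (limma, adjusted p = 0.546). Between kTreg and rTreg 1 was higher, Trav6-3, against 6.5% of all genes, and 4 were lower, against 6.1%. Between aTreg and rTreg 0 were higher, against 4.58%, and 3 were lower (Trbv12-1, Trbv31 and Trav15-2-dv6-2), against 2.88%. Trbv5 and Trav15-2-dv6-2 are named here after their values were seen.

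The calls on Trav12n-3, Trav9n-3 and Trav11d rest on genes with an identical or near-identical copy. Trav12n-3 had between 0 and 2 reads in the 8 kTreg libraries, where 0 reads allow a share of up to 0.0419% to 0.0609% in the young ones, and between 0 and 169 in the other 16. Its twin Trav12d-3 had between 0 and 64 reads, and in each of the 24 libraries the lower of the pair had at most 3 reads. Summed, the pair held 0.515% ± 0.431 in young kTreg and 1.53% ± 0.961 in young rTreg. With copies that share most of their 150-base runs summed, the pair differed by -1.09 between kTreg and aTreg (limma, adjusted p = 0.455) and by -1.75 between kTreg and rTreg (adjusted p = 0.147), and neither was called. Trav9n-3 with Trav9d-3 differed by 0.32 between kTreg and rTreg (adjusted p = 0.71).

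Trav11 and Trav11d encode the invariant alpha chain of natural killer T cells, which do not express Foxp3 as a rule. The V exons of the pair are the same over 290 bases, and in most aTreg libraries nearly all reads of the pair were counted on 1 copy. In young aTreg replicates 1 to 4 Trav11 had 63, 0, 0 and 48 reads and Trav11d 3, 50, 212 and 0. In old aTreg the counts were 104, 0, 1 and 11 for Trav11 and 6, 98, 193 and 10 for Trav11d. The pair held 1.436% ± 0.965 of the Trav sum in young aTreg and 1.54% ± 0.844 in old aTreg, against 0.237% ± 0.194 and 0.359% ± 0.298 in young and old rTreg and 0.307% ± 0.211 and 0.588% ± 0.339 in young and old kTreg. The sum rose by 2.53 ± 0.71 on the log2 scale from rTreg to aTreg (limma, adjusted p = 0.0221), and between kTreg and aTreg it differed by -2.01 (adjusted p = 0.0676). Trav11d alone was called between aTreg and rTreg, at 3.31 ± 1.00 (adjusted p = 0.0350), and lost the call under 6 of 20 alternatives, among them without old aTreg replicate 2 (3.03, adjusted p = 0.0727).

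The 2 listed markers of natural killer T cells, Zbtb16 and Klrb1c, were called higher in aTreg than in rTreg, against 5.23% of all genes. They were called lower in kTreg than in aTreg, against 3.23%. The J and beta genes that these cells favour were not called. Zbtb16, which encodes their transcription factor PLZF, lay between 0.0 and 13.5 units in rTreg, between 53.7 and 153.5 in young aTreg, between 39.3 and 144.5 in old aTreg and between 0.0 and 55.5 in kTreg. It was higher in aTreg than in rTreg by 5.49 on the log2 scale and lower in kTreg than in aTreg by 2.88, and both were called. Zbtb16 was also called higher in kTreg than in rTreg, and Klrb1c higher in old than in young rTreg. Old aTreg replicate 4 had the lowest share of the Trav11 and Trav11d pair in its group, 0.368%, and the highest Zbtb16 value, 144.5 units. Traj18, the J gene of the invariant chain, had means of 105.0 and 106.2 units in young and old rTreg, 133.8 and 103.1 in aTreg and 154.1 and 138.2 in kTreg, and was not called between aTreg and rTreg (0.19 on the log2 scale, limma, adjusted p = 0.801). The list of 2 markers (Zbtb16 and Klrb1c) summed to between 67.2 and 173.9 units in young rTreg, 263.4 and 750.0 in old rTreg, 339.5 and 592.4 in young aTreg, 489.7 and 1398.3 in old aTreg, 95.6 and 446.8 in young kTreg and 161.8 and 399.2 in old kTreg. The part of such cells in the Trav11 shares was not tested. Trav1, used by mucosal-associated invariant T cells, lay between 0.158% and 1.89% in all libraries. Of the beta genes that invariant natural killer T cells favour, Trbv13-2 held on average 5.801% and 6.55% in young and old rTreg, 5.88% and 6.04% in aTreg and 5.59% and 6.30% in kTreg. Trbv29 held 1.26% and 1.04%, 1.35% and 0.996%, and 0.988% and 1.12% in the same order, and 0 of these 2 genes were called in any comparison.

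The similarity of usage was measured by the Bray-Curtis index, which is 1 for 2 libraries with the same shares and 0 for libraries with no gene in common. Mice of a group were most alike in young rTreg, with a mean of 0.889 over 6 pairs (0.869 to 0.913), and in young aTreg, with 0.878 (0.859 to 0.899). They were less alike in old rTreg (0.824), young kTreg (0.788) and old kTreg (0.804), and least in old aTreg, with 0.662 (0.514 to 0.819). The last mean is lowered by old aTreg replicate 2, whose mean similarity to its group was 0.551. For the other old aTreg libraries it was 0.697 to 0.702, with the pair to replicate 2 included. Young and old rTreg pairs did not overlap, since the highest old value was 0.841. Pairs of libraries share mice, so these values are given as a description.

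For 2 of the 3 pairs of subsets, libraries of the same mouse were slightly more alike than libraries of different mice of the same age, by differences that were lost under several alternatives. For aTreg and kTreg the similarity was 0.791 within a mouse and 0.769 between mice (exact permutation p = 0.0104, adjusted p = 0.0312 over 3 pairs of subsets), and 5 of 8 aTreg libraries had their own mouse's kTreg library as the most like. For rTreg and kTreg it was 0.816 and 0.805 (exact permutation p = 0.0226, adjusted p = 0.0339). For rTreg and aTreg it was 0.800 and 0.791 (exact permutation p = 0.108). The aTreg and kTreg difference of 0.0219 lost its call when any of the old mice 1 to 4 or young mouse 3 was left out, and was 0.00471 without old mouse 4. With Trav shares alone it was 0.0140 (adjusted p = 0.193). The rTreg and kTreg difference of 0.0112 lost its call with Trav shares alone (0.0142, exact permutation with adjusted p = 0.109), with Trbv shares alone (0.00829, adjusted p = 0.115), with the Jensen-Shannon distance (0.0136, adjusted p = 0.0599) and with genes summed by family (0.00677, adjusted p = 0.193), and when any mouse other than young mice 2 and 4 was left out.

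**Figure D4:**
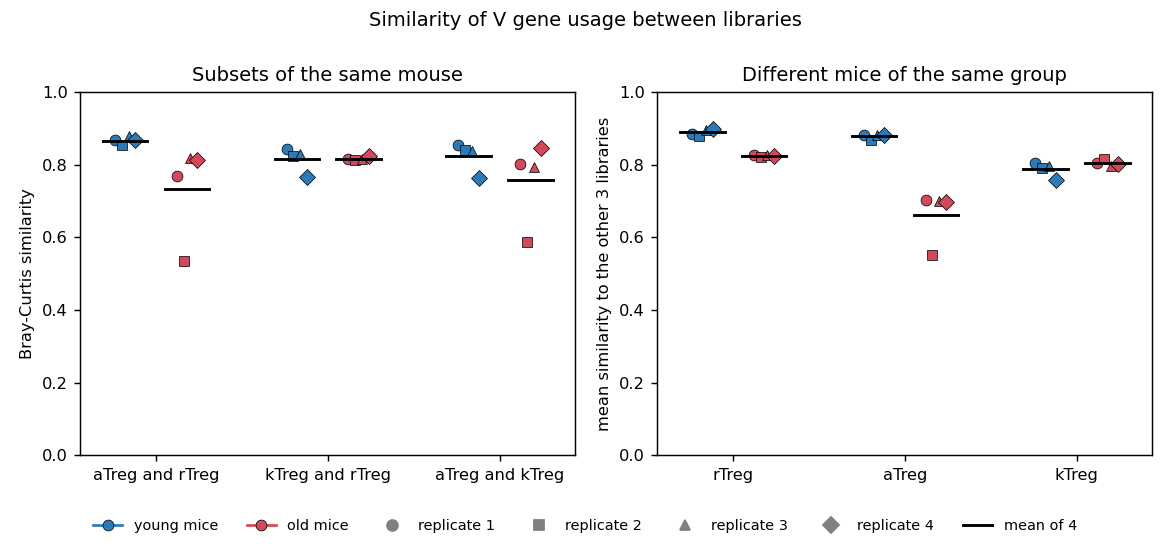
Bray-Curtis similarity of V gene shares (0 to 1) between subsets of the same mouse (left) and, for each library, its mean similarity to the other 3 libraries of its group (right), with young mice in blue, old mice in red, a symbol per replicate and bars for the mean of 4. In old mice aTreg was less like rTreg of the same mouse (0.534 to 0.818) than in young mice (0.853 to 0.879). Old aTreg libraries were least like each other, with replicate 2 lowest at 0.551.

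The similarity of aTreg to the mouse's own rTreg library was 0.867, 0.853, 0.879 and 0.867 in young mice 1 to 4 and 0.768, 0.534, 0.818 and 0.812 in old mice 1 to 4, so the ages did not overlap (difference -0.133, exact permutation p = 0.0286, adjusted p = 0.0857 over 3 comparisons). Without old mouse 2 the difference was -0.0671. For kTreg the means were 0.816 in young and 0.817 in old mice (exact permutation p = 0.971). Over all 8 mice kTreg was 0.0165 more like rTreg than aTreg was, and more like it in 3 of 8 mice (exact permutation p = 0.859). Leaving out old mouse 2 reversed the sign of this difference, to -0.0210.

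The summed level of the beta V genes was lower in kTreg. The Trbv sum was 7654.99, 5864.56, 7972.01 and 7235.45 normalized units in young kTreg and 7742.61, 6820.25, 6767.92 and 7528.73 in old kTreg. In young rTreg it was 13211.7, 10934.7, 15483.6 and 13661.6, and in old rTreg 10064.5, 9111.74, 11436.5 and 9662.56. All 8 kTreg libraries were below all 16 rTreg and aTreg libraries, of which the lowest was 9111.74. On the log2 scale the sum was lower in kTreg by 0.63 than in aTreg and by 0.68 than in rTreg, in 8 of 8 mice each (exact sign-flip permutation p = 0.00781, adjusted p = 0.0312 over 12 comparisons). Between aTreg and rTreg it differed by -0.05 (exact permutation p = 0.547).

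**Figure D5:**
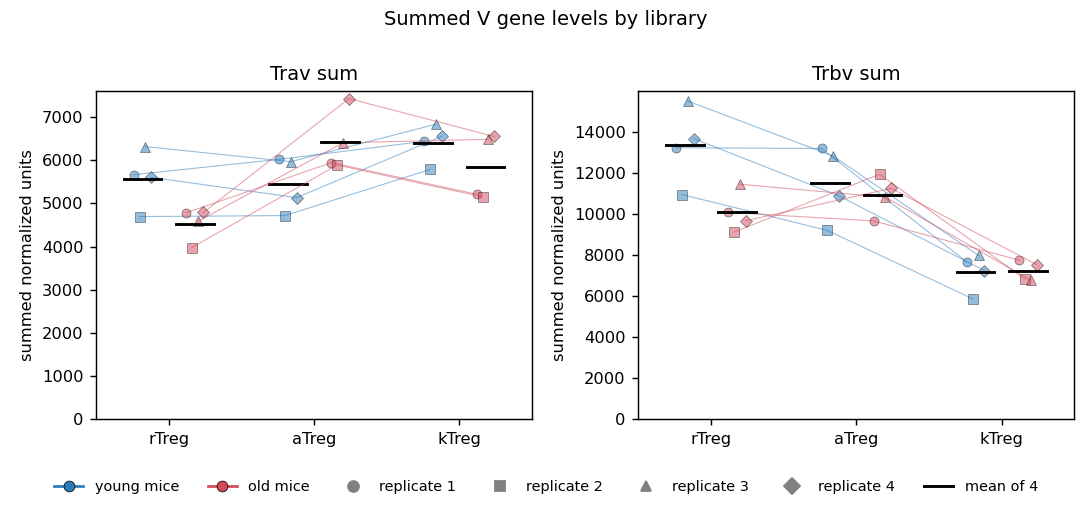
Summed Trav (left) and Trbv (right) values in normalized units by subset, with young mice in blue, old mice in red, a symbol per replicate, lines joining the libraries of a mouse and bars for the mean of 4. The Trbv sum of all 8 kTreg libraries lies below that of every rTreg and aTreg library, whereas the Trav sum of kTreg was above that of rTreg in each mouse.

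Against rTreg the Trav sum did not fall with it. It was higher in kTreg than in rTreg by 0.28 on the log2 scale, in 8 of 8 mice (exact sign-flip permutation p = 0.00781, adjusted p = 0.0312), and differed by 0.05 from aTreg (exact permutation p = 0.531). This last mean combines young mice, at 0.24 ± 0.11 (SD, n = 4), and old mice, at -0.14 ± 0.10 (SD, n = 4). The ratio of the Trbv to the Trav sum was 2.33 to 2.45 in young rTreg and 2.02 to 2.496 in old rTreg, and 1.01 to 1.19 in young kTreg and 1.04 to 1.49 in old kTreg. Leaving out any mouse kept all 3 differences in sum in their direction, with 7 mice too few for an adjusted p under 0.05.

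The constant genes, which are counted separately from the V genes, were lower in kTreg for the beta chain too. Trbc1 had means of 20424.8 and 18520.3 units in young and old rTreg and 11786.7 and 13559.3 in young and old kTreg. Trbc1 fell by 0.62 ± 0.12 on the log2 scale from rTreg to kTreg (limma, adjusted p = 0.00064). Trbc2 had -0.58 ± 0.11 (adjusted p = 0.00062), which is just inside the fold threshold and was not called. Against aTreg the values were -0.54 and -0.52. Trac differed by 0.35 ± 0.09 between kTreg and rTreg (adjusted p = 0.00571) and by -0.02 between kTreg and aTreg, neither of which was called. Of the 9 listed receptor genes outside the V segments (Trac, Trbc1, Trbc2, the 4 CD3 chains, Cd4 and Dntt), 2 were called between kTreg and rTreg, both lower, Trbc1 and Dntt, and 0 in the other comparisons. Of all genes 6.01% were called lower in kTreg than in rTreg and 15.4% in either direction. Dntt encodes the polymerase that adds bases at the junctions. It lay between 33.2 and 100.7 units in young rTreg, 0.0 and 85.4 in old rTreg, 5.20 and 44.4 in young aTreg, 0.0 and 3.904 in old aTreg and 0.0 and 33.5 in young kTreg. It was at 0.0 in all 4 old kTreg libraries.

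In the library led by Trbv4 and Trav10 the share of the leading J gene lay within the range of the other libraries for either chain. Of the 40 Traj genes listed, the leading one held 8.603% to 13.8% of the Traj sum over all libraries, and in old aTreg replicate 2 Traj19 led with 10.6%. Traj27 and Traj2 had their highest share of any library there and Traj20 its lowest. Every gene has its highest and lowest share in some library, and such genes were not counted for the other libraries. The effective number of Traj genes was 22.3 in old aTreg replicate 2, within the 17.5 to 24.9 of the other libraries. Of the 14 Trbj genes Trbj1-5 led in 23 of 24 libraries, and in old aTreg replicate 2 it held 27.8%, within the range of 20.05% to 28.7% of the others in which it led. The exception was young kTreg replicate 4, in which Trbj2-7 held 30.1%. J exons are short and their sums were low, 629.5 to 4154.7 units for Traj and 450.4 to 1610.3 for Trbj. How many of these reads come from rearranged transcripts is not known from gene counts. Of 47 J genes tested, 4 (Traj14, Traj24, Traj38 and Traj51) were called higher and 2 (Trbj1-5 and Trbj1-7) lower in kTreg than in rTreg, 2 (Traj24 and Traj38) higher in aTreg than in rTreg, and 2 (Traj14 and Traj24) lower in old than in young rTreg. Of all genes tested, 9.36% were called higher and 6.01% lower in kTreg than in rTreg. In aTreg 5.23% were called higher than in rTreg (8.02% in either direction). In old rTreg 1.7% were called lower than in young rTreg (5.81% in either direction). In the other 3 comparisons 0 J genes were called.

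Of the 4 gamma chain V genes tested, 1 (Trgv2) was called higher in old than in young aTreg, against 1.85% of all genes. The same gene was called higher in old than in young kTreg, against 1.02%. Between subsets 2 (Trgv2 and Trgv4) were called higher in aTreg than in rTreg, against 5.23% of all genes. In kTreg 3 (Trgv1, Trgv2 and Trgv4) were called lower than in aTreg, against 3.23%. Between kTreg and rTreg and between old and young rTreg 0 were called. The 6 Trgv genes listed summed to between 732.4 and 1195.7 units in old aTreg, against 96.0 to 173.8 in young aTreg and 112.3 to 342.6 in old kTreg. The sum is a description and was not tested, and Trgv5 had a mean of 4.82 units in old and 15.4 in young aTreg. Trgc2, a gamma constant gene, was called in each comparison in which Trgv2 was, and in the same direction. Of the other gamma constant genes, Trgc1 was called higher in aTreg than in rTreg. Trgc1 and Trgc4 were called lower in kTreg than in aTreg and higher in old than in young kTreg. Of the 5 gamma-delta markers 2 (Trdc and Trgc4) were called lower in kTreg than in rTreg, against 6.01% of all genes. Old aTreg replicate 2, in which Trbv4 and Trav10 led, had the lowest Trgc2 value of the old aTreg group, 760.3 units against 3701.1 to 6620.6. The 3 Trdv genes listed summed to between 18.6 and 194.1 units in all libraries, and 0 of them were called in any comparison.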

How the data were processed

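RNA of FACS-sorted splenic Treg subsets was made into SMART-Seq v4 libraries and sequenced as paired 150-base reads. Per the labels, the authors mapped reads with HISAT2 2.2.1 to GRCm39, sorted them with SAMtools 1.13, counted them per gene with HTSeq 1.99.2 and normalized them with DESeq2 1.44.0. The deposited values are a signal, reads divided by a size factor. Annotation release, strand and the handling of reads with several hits are not given in the sources used here. Each library's values were whole multiples of what 1 read is worth for 100% of values, within 0.001 reads, so whole reads were recovered.

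Each V gene's share of its locus sum was computed. Diversity, sums and similarity were tested by exact permutation, two-sided. Single genes were tested with limma 3.58.1 (R 4.3.3) on log2(value + 1) over the 16630 genes that reached 10 in no fewer than 4 libraries, with Trav and Trbv values rescaled to a common locus sum, no block, and Benjamini-Hochberg adjustment. Fold changes on this scale understate low genes. The alternatives included edgeR 4.0.16 and DESeq2 1.42.0 on recovered reads. The script was tested on simulated data.

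Subsets with the same replicate number were taken as coming from the same mouse, since the series describes 3 subsets sorted from each of 4 young and 4 old mice. The correlation of their deviations from the group means over all genes had medians of 0.153 for rTreg and aTreg, 0.0911 for rTreg and kTreg and 0.115 for aTreg and kTreg. The consensus correlation of a mouse was 0.0616.

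The genes described in detail were the 10 Trav and 10 Trbv genes of highest mean share, the members called in each comparison, the 6 highest shares of a gene in a library per locus, the leading gene of each library, genes of invariant T cells and the other receptor genes. The members, the lists and the tests were chosen with earlier results of these data known. A further marker of the sort is not reported here.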

Additional observations from a re-analysis of the deposited data

Results flagged for a closer look

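Single libraries that stood apart from the other 3 of their group were looked for in 16 measures and 6 groups, 96 groups in all, by the gap to the nearest library divided by the range (Dixon's critical value for 4 samples). In these 7 were found. The measures included the shares of genes taken because they led in some library. Trav10 and Trav14n-1 each entered through 1 library, which is itself among those flagged. The usual chance rate of about 1 in 20 groups therefore does not apply, and the 7 are a description. Trav10 held 36.8% of the Trav sum in old aTreg replicate 2, against 1.65% to 3.00% in the other 3 libraries. Trav7-4 held 14.3% in old aTreg replicate 1, against 4.09% to 5.75%. Trbv1 held 17.2% of the Trbv sum in old kTreg replicate 3, against 9.27% to 9.85%, which also made its leading share of 17.2% stand apart from 10.1% to 10.8%. Trav14n-1 stood apart in young mouse 1 in rTreg and kTreg and in young mouse 2 in aTreg: 5.46% in young rTreg replicate 1 against 0.212% to 0.334%, 3.25% in young aTreg replicate 2 against 0.0943% to 0.202%, and 2.80% in young kTreg replicate 1 against 0.0% to 0.0826%.

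The difference between kTreg and aTreg in the leading Trbv share was -15.0 points in old relative to young mice by the exact permutation test (p = 0.0286, adjusted p = 0.343). For 2 genes every young mouse moved one way and every old mouse the other, and these differences were not tested. Trbv3 was higher in aTreg than in rTreg by 0.564 to 2.34 points in the 4 young mice and by -7.76 to -3.28 points in the 4 old mice, a difference of -6.93 points between the mean changes. From aTreg to kTreg it changed by -4.14 to -0.390 points in young and by 0.614 to 5.57 points in old mice, a difference of 4.02 points. Trbv19 changed from rTreg to aTreg by 0.161 to 1.28 points in young and by -3.88 to -0.356 points in old mice, a difference of -2.23 points.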

How the results depend on the processing

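No called result changed direction under the alternatives that were run. The 24 diversity tests stayed without a call with other indices, with V reads thinned to 3823 (Trav) and 5735 (Trbv) per library and with genes summed by family. The same held without pseudogenes, with no replicate block and with each mouse left out. Except between subsets with no replicate block, no single comparison can pass over 24 tests. The smallest p of the exact permutation tests is 0.0286 for age and 0.00781 between paired subsets. The lack of a call is therefore not evidence that these results are stable. The number of V genes called depended on the settings. Between kTreg and aTreg it was 1, and it was 7 with the deposited values (which do not remove the difference in Trav and Trbv sums), 9 with edgeR, 14 with DESeq2, and 2 each with a pseudocount of 5, with a minimum value of 50, with the replicate block and with the groups compared alone. Between kTreg and rTreg it was 5, and it was 18 with the deposited values, 19 with edgeR, 21 with DESeq2, and 3 each with a pseudocount of 5 and with copies summed, an alternative chosen after seeing the data. The replicate block gave 6 there and left the counts of the other 4 comparisons as they were. Old against young, DESeq2 called 4 members in aTreg (2 in the main test) and 3 in kTreg (0 in the main test), and the deposited values, edgeR and DESeq2 called 1 each in rTreg (0 in the main test). With single mice or libraries left out the counts ranged from 0 (without young mouse 3) to 6 (without young mouse 4) between kTreg and aTreg, from 2 (without old mouse 3) to 7 (without old mouse 1) between kTreg and rTreg, from 1 (without young mouse 3) to 4 (without young mouse 4) between aTreg and rTreg, and for age from 0 to 1 in rTreg, from 1 to 3 in aTreg and at 0 in kTreg. The similarity within a mouse was 0.0112 for rTreg and kTreg and lost its call with Trav alone (0.0142), Trbv alone (0.00829), the Jensen-Shannon distance (0.0136) and families (0.00677). That for aTreg and kTreg lost it with Trav alone (0.0140), and that for rTreg and aTreg gained it with Trbv alone (0.0115). With a mouse left out these ranged from 0.00752 to 0.0158 for rTreg and kTreg, from 0.00471 to 0.0350 for aTreg and kTreg and from -0.0111 to 0.0255 for rTreg and aTreg. The log2 difference in Trav sum between kTreg and rTreg ranged from 0.253 to 0.309, and that in Trbv sum from -0.680 to -0.611 against aTreg and from -0.731 to -0.645 against rTreg, all without a call since 7 mice cannot give a small enough p. The cause of these changes was not tested unless stated. With 3823 to 8138 Trav reads, a gene with 0 reads can hold a share of up to 0.0369% to 0.0785%.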
